A study of Mus musculus with 26 samples.

Results

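The 48 genes described here are all those in the count table named Psma, Psmb, Psmc, Psmd, Psme, Psmf or Psmg followed by a number, out of 56941 genes listed, and they encode the subunits, activators and assembly factors of the proteasome. They fall into 8 genes of the alpha ring and 7 of the constitutive beta ring of the 20S core, 3 of the immunoproteasome, 1 of the thymoproteasome, 6 ATPases and 11 other subunits of the 19S regulatory particle, 3 chaperones of 19S assembly, 4 activators, 1 inhibitor and 4 chaperones of 20S assembly. After a filter on low counts 47 of the 48 were tested among 15357 genes. The gene left out was Psmb11, the catalytic subunit of the thymoproteasome, which had 1 count in 1 mouse and 0 in every other. The rule used names only and no measured value.

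RNA was sequenced from the left ventricle of 26 mice in 4 groups, with 6 Ctrl and 7 cKO mice of each sex. In the genotype of the cKO animals, aMHC-CreTg/0-Ppp2r2aL/L, the mice carried floxed alleles of Ppp2r2a, the gene of the B55α regulatory subunit of protein phosphatase 2A, and a Cre transgene under the αMHC promoter, which is active in heart muscle cells. The Ctrl mice (aMHC-Cre0/0-Ppp2r2aL/L) carried the same floxed alleles without Cre. All 4 groups were 12 to 16 weeks old and had received saline from an implanted minipump for 2 weeks. The strain field of the labels reads C57BL/6N, while the design text gives a mixed background with floxed mice from C57BL6/N and Cre mice from FVB. Loss of B55α, presence of Cre and FVB sequence linked to the transgene cannot be told apart in this design. The whole ventricle was used, so cells that lack αMHC also contributed RNA, and fewer cells of a type cannot be told apart from less RNA per cell.

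The proteasome breaks down proteins that carry ubiquitin chains. Its 20S core is a barrel of rings, in which the inner beta rings carry the peptidase sites (Psmb5, Psmb6 and Psmb7) and the outer alpha rings form the gate. The 19S particle binds ubiquitin chains, removes them and uses a ring of ATPases to unfold the substrate and feed it into the core. In cells exposed to interferon the peptidase subunits can be replaced by Psmb8, Psmb9 and Psmb10, which form the immunoproteasome. In heart muscle the system is known for the turnover of damaged and sarcomeric proteins.

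Promoter sequences are shown for the members called below that have an entry in the RefSeq promoter table (Psmc2, Psmb3, Psma4 and Psme1) and for the peptidase genes Psmb5 and Psmb6, because proteasome genes are known to be controlled together through short promoter motifs. Each is the 250 bases before an annotated start on build GRCm38.p6, in the direction of transcription. They lie at chr5:21785025-21785274 (Psmc2, plus strand, the first of its pair of listed starts), chr11:97703184-97703433 (Psmb3, plus strand), chr9:54950609-54950858 (Psma4, plus strand), chr14:55578244-55578493 (Psme1, plus strand), chr14:54617996-54618245 (Psmb5, minus strand) and chr11:70525107-70525356 (Psmb6, plus strand). Capitals mark matches to CCAAT, the letters bound by NF-Y, to TGACNNNGC, the core of the antioxidant response element bound by NFE2L1 and NFE2L2, and to the interferon-stimulated response element.
Psmc2: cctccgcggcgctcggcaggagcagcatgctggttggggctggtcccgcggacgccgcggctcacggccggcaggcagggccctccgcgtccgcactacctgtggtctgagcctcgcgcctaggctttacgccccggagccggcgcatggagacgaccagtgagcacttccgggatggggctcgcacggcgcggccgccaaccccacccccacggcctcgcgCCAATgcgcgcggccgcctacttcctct
Psmb3: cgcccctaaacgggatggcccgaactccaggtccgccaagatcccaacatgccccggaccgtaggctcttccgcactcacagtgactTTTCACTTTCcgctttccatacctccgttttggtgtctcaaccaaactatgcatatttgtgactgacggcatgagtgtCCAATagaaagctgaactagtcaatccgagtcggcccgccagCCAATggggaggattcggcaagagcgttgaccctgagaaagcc
Psma4: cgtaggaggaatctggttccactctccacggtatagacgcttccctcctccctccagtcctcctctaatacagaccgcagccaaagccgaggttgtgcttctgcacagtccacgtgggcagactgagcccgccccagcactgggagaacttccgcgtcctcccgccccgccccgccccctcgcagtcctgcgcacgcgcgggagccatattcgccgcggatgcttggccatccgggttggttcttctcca
Psme1: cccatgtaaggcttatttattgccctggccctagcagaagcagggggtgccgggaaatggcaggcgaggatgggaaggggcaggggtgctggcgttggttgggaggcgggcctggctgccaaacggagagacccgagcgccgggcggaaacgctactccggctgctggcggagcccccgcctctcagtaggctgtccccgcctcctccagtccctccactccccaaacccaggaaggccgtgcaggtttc
Psmb5: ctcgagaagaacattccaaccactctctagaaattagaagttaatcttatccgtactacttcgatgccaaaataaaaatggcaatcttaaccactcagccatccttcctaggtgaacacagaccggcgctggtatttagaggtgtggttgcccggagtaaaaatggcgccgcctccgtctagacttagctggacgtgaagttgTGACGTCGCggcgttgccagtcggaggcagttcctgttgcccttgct
Psmb6: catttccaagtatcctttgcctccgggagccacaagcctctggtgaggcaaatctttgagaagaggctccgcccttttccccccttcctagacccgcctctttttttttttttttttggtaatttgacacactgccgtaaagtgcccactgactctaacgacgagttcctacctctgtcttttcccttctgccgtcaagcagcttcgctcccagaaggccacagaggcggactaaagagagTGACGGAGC
The Psmc2 window held CCAAT with its first base at -28 from the start, while the window before the other listed start of Psmc2 (chr5:21786497-21786746) held no match. The Psmb3 window held CCAAT at -85 and -43 and an interferon-stimulated response element at -163, while those of Psma4 and Psme1 held no match. TGACNNNGC began at -47 in Psmb5 and at -9 in Psmb6.

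Of the 48 genes, 40 had an entry in that table. In windows of 300 bases, from 250 before to 50 after the start, with both strands searched, TGACNNNGC was found in 6 of the 40 (15.0%), against 14% of all 27025 genes in the table. CCAAT was found in 14 of the 40 (35.0%) against 41.1% of all genes. The interferon-stimulated response element was found in 5 of the 40 (12.5%) against 3.99% of all genes, in Psmb3, Psmd4, Psmd9, Psme1 and Psmg4. The match of Psme1 reaches past its start and is therefore not in the bases shown. These are matches of letters and not measured binding sites, and motifs of these genes that lie elsewhere were not searched.

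Total counts per library ranged from about 14403100 to about 30867400. Ppp2r2a, the targeted gene, was at 24.1 to 47.7 counts per 1000000 scaled counts (CPM) in Ctrl males, 11.8 to 16.2 in cKO males, 36.2 to 46.7 in Ctrl females and 9.96 to 16.2 in cKO females, so the genotypes did not overlap in either sex. Ctrl males 3 and 6 (24.9 and 24.1 CPM) were under the range of the remaining 4 Ctrl mice of that sex (41.9 to 47.7 CPM), and results are also given without them. In that case 0 members were called in males and 4 for the mean of the sexes, a comparison described below. The share of all genes called without these mice is not given here, so these counts cannot be read as changes of the members alone. The ventricle label was met by cardiomyocyte genes (Myh6, Tnnt2, Actc1, Myl2, Tnni3 and Ryr2), whose summed level was 50461 to 71058 CPM over the 26 mice, against 1.14 to 2.31 CPM for 3 atrial genes.

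Levels were compared between genes per kilobase of transcript. The highest was Psmb6, the caspase-like peptidase of the core, at a mean of 166 CPM per kb over the 26 mice (lowest mouse 149, highest 197). Psmc3, an ATPase of the 19S base, followed at 122 CPM per kb (112 to 135), and then Psmb7, the trypsin-like peptidase, at 117 (103 to 127) and the alpha subunit Psma7 at 111 (97.1 to 127). The ranges of Psmc3, Psmb7 and Psma7 overlapped, while the lowest value of Psmb6 lay above the highest of each of these 3. The activator subunit Psme1 (105 CPM per kb) and the chymotrypsin-like peptidase Psmb5 (103) came next.

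The assembly factors lay below every subunit of the constitutive core and the 19S particle except Psma8. Psmg2, Psmg1, Psmg4 and Psmg3, which help the alpha ring to form, were at 21.0, 14.7, 12.1 and 6.27 CPM per kb. The 19S chaperones Psmd9, Psmd10 and Psmd5 were at 6.76, 5.50 and 4.07, and Psmf1, the inhibitor PI31, at 4.76. Psma8, an alpha subunit known from the testis, was at 0.322 CPM per kb, with 1 to 26 counts per mouse.

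**Figure D1:**
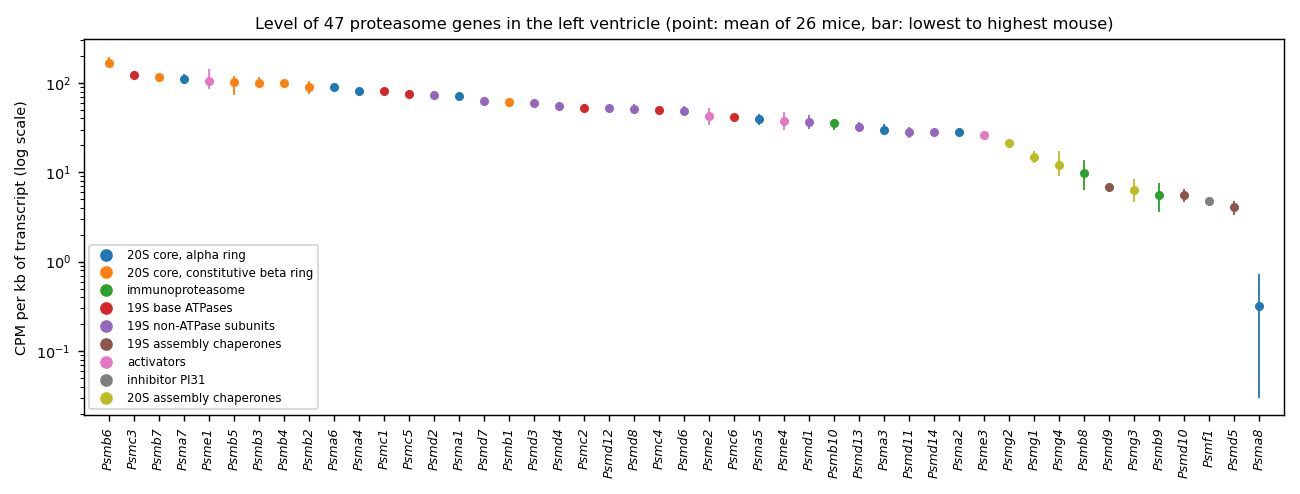
Level of the 47 tested genes in CPM per kilobase of transcript (vertical axis, log scale), in order of level, with the point at the mean of 26 mice and the bar from the lowest to the highest mouse. Subunits of the core and of the 19S particle other than Psma8 lie at 28.3 CPM per kb or above, Psmb8, Psmb9 and the assembly factors lie between 4.07 and 21.0, and Psma8 lies at 0.322.

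The members varied little between mice of a group. Their median within-group standard deviation was 0.08 on the log2 scale, against 0.19 over all tested genes, whose median level was 12.9 CPM against 84.7 CPM for the members. The most variable were Psma8 (0.62), Psmb8 (0.32), Psmb9 (0.30) and Psmb5 (0.22). The least variable was Psmb4, a structural beta subunit, at 0.05.

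In male mice most proteasome genes had slightly lower levels in cKO than in Ctrl ventricles. The log2 fold change was below 0 for 41 of 47 members, with a median of -0.08, while it was below 0 for 49.7% of all tested genes, whose median was 0.00. At an unadjusted p under 0.05, 18 members were lower and 0 higher, and 7.09% of all tested genes were lower by that rule. After Benjamini-Hochberg adjustment over all tested genes, with edgeR's quasi-likelihood test, 1 member passed an adjusted p of 0.05, Psmc2, which was lower. DESeq2, run as an alternative, called 6 members, all lower, and 2.6% of all genes in either direction. By edgeR's call 0.443% of all genes were called in either direction and 0.26% were lower in cKO.

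In female mice 45 of 47 members had a log2 fold change below 0, with a median of -0.06, against 48.9% of all tested genes. At an unadjusted p under 0.05, 8 members were lower and 0 higher, against 2.42% of all genes lower. By edgeR 0 members passed after adjustment, and 0.0326% of all genes did. By DESeq2 0 members and 0.0586% of all genes passed. Of the 47 members, 39 were below 0 in both sexes, which share no mice, against 29.1% of all genes.

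For the mean of the male and female effects, 43 of 47 members were below 0 (48.4% of all genes), with a median of -0.07. At an unadjusted p under 0.05, 21 members were lower and 0 higher, and 7.7% of all genes were lower. After adjustment by edgeR 5 members were called, all lower in cKO: Psmc2, Psmb3, Psme1, Psma4 and Psmb2. DESeq2 called 11 members, all lower, and 3.57% of all genes in either direction. By edgeR 1.33% of all genes were called and 0.866% were called lower. For the difference between the sexes in the genotype effect, 0 members had an unadjusted edgeR p under 0.05. Of all genes, 1.91% had such a p with a difference below 0. After adjustment 0 members and 0% of all genes passed by edgeR. By DESeq2 the counts were 0 members and 0% of all genes. A difference between males and females in the response of proteasome genes was therefore not shown.

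With DESeq2 size factors in edgeR, 41 members in males and 45 in females were below 0, and the median over all genes moved by less than 0.01 on the log2 scale. Across genes, fold changes were higher for longer transcripts (Spearman rho 0.26 in males and 0.11 in females, over 15092 genes, which are not independent replicates), and the members' transcripts were short, with a median of 1.54 kb against 2.97 kb for all genes. With an offset for length and GC content the male median was -0.06 with 40 members below 0, and the female median was -0.06 with 45 below 0, against all-gene medians of -0.02 and -0.01. Under that offset 55.5% of all genes in males and 54.8% in females were below 0. At an unadjusted edgeR p under 0.05, 11 members in males and 8 in females were lower, beside 7.65% and 3.6% of all genes. Without the offset it was 18 and 8 members. With that offset 0 members were called in males and 3 for the mean effect. The share of all genes called with the offset is not given here, so this is not a result about the members alone.

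**Figure D2:**
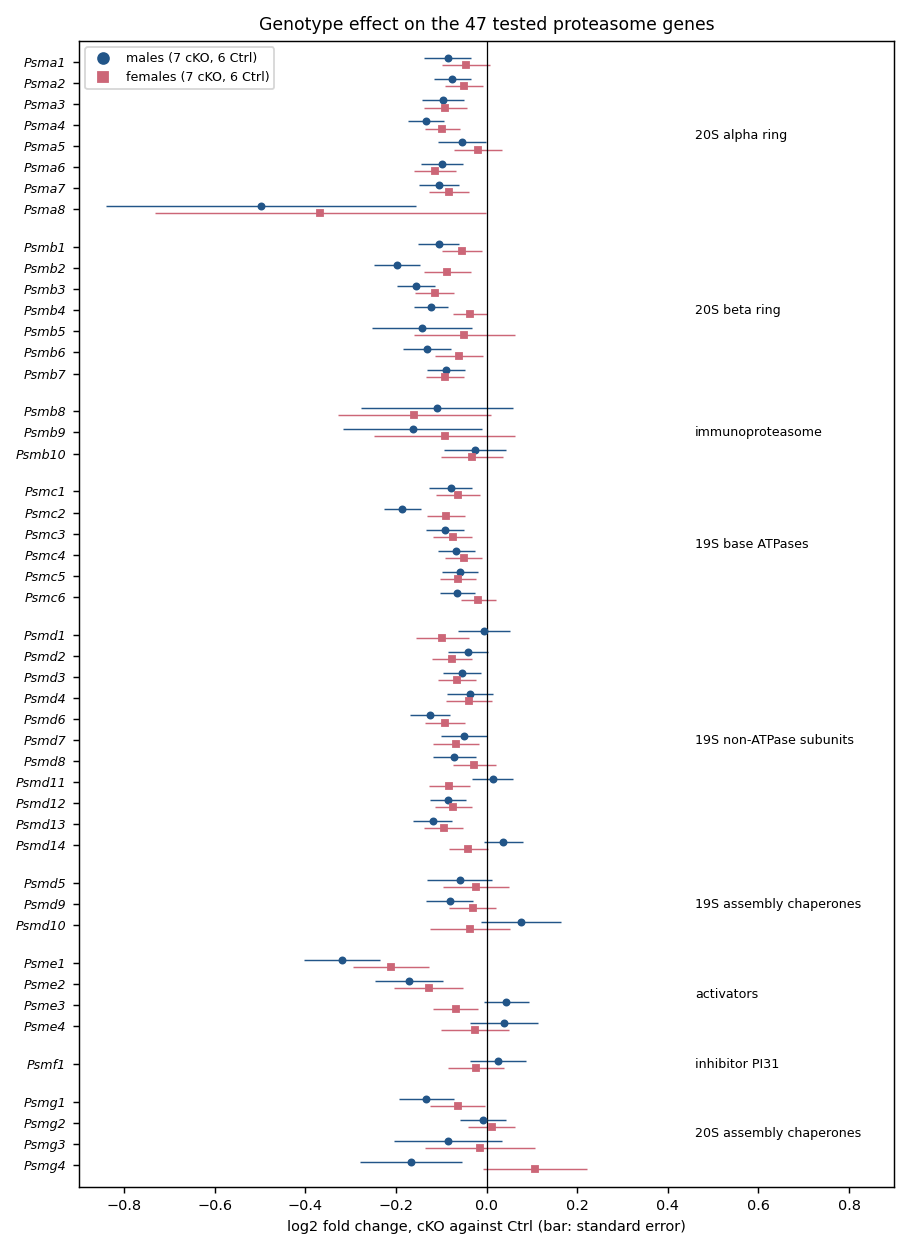
Log2 fold change of cKO against Ctrl (horizontal axis, bars show the standard error) for each of the 47 tested genes by class, in males (circles) and females (squares). Points lie left of 0 for 41 genes in males and 45 in females, and the activator subunit Psme1 lies at -0.32 and -0.21.

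In the constitutive 20S core the 14 genes other than Psma8 all had log2 fold changes below 0 in each sex, with medians of -0.11 in males and -0.07 in females. By edgeR 10 of them in males and 4 in females had an unadjusted p under 0.05, against 7.09% and 2.42% of all genes lower by that rule. Genes of a class were measured in the same mice and are not independent replicates. Psma8 itself was at -0.50 (SE 0.34) and -0.37 (SE 0.36), from group means of 0.67 and 0.48 CPM in Ctrl and cKO males and 0.59 and 0.46 CPM in Ctrl and cKO females, and its groups overlapped. The median over the 7 beta subunits was -0.13 in males and -0.06 in females, and over the 8 alpha subunits -0.10 and -0.09. Summed over the 14 genes, the core was at 1394 to 1480 CPM in Ctrl males (median 1408) and 1262 to 1362 CPM in cKO males (median 1316), so the male groups did not overlap. In females the sums were 1345 to 1490 (median 1415) in Ctrl and 1278 to 1453 (median 1314) in cKO mice, with overlap.

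Psmb3 is a structural subunit of the beta ring. It was at 74.8 to 88.6 CPM in Ctrl males (median 79.1) and 69.3 to 73.8 CPM in cKO males (median 72.5). It was at 78.3 to 85.2 CPM in Ctrl females (median 82.1) and 68.9 to 80.7 CPM in cKO females (median 75.7). The male groups did not overlap and the female groups did. The log2 fold change was -0.16 (SE 0.04) in males, with an edgeR adjusted p of 0.0812, and -0.14 (SE 0.03) for the mean effect, with an edgeR adjusted p of 0.021. That call was lost without the filter on low counts (edgeR adjusted p = 0.0604) and with the length and GC offset together with the replicate block (edgeR adjusted p = 0.0654). An exact two-sided permutation test gave p = 0.000583 in males and 0.014 in females, without adjustment.

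Psmb2, another structural beta subunit, ranged from 77.4 to 89.0 CPM in Ctrl males (median 82.5) and from 63.9 to 79.7 CPM in cKO males (median 72.9). In females the ranges were 76.5 to 85.6 CPM (median 81.1) and 68.9 to 83.6 CPM (median 76.4). All 7 cKO males lay below the Ctrl male mean, with overlap at the edges. The mean effect was -0.14 (SE 0.04, edgeR adjusted p = 0.0457), and this call was lost on omission of any of 17 of the 26 mice and in the fit blocked on the replicate number (edgeR adjusted p = 0.053). It was also lost with the length and GC offset (edgeR adjusted p = 0.115).

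Psma4, a subunit of the alpha ring, was at 93.3 to 103.7 CPM in Ctrl males (median 98.6) and 84.5 to 94.7 CPM in cKO males (median 90.1). In Ctrl females it was at 91.2 to 104.7 CPM (median 96.2) and in cKO females at 86.1 to 95.3 CPM (median 90.7). The groups overlapped narrowly in both sexes, and 7 of 7 cKO mice in each sex lay below their Ctrl mean. The mean effect was -0.12 (SE 0.03, edgeR adjusted p = 0.0308). That call was lost without Ctrl males 3 and 6 (edgeR adjusted p = 0.0635), with the length and GC offset (edgeR adjusted p = 0.0813) and on omission of any of 7 single mice.

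**Figure D3:**
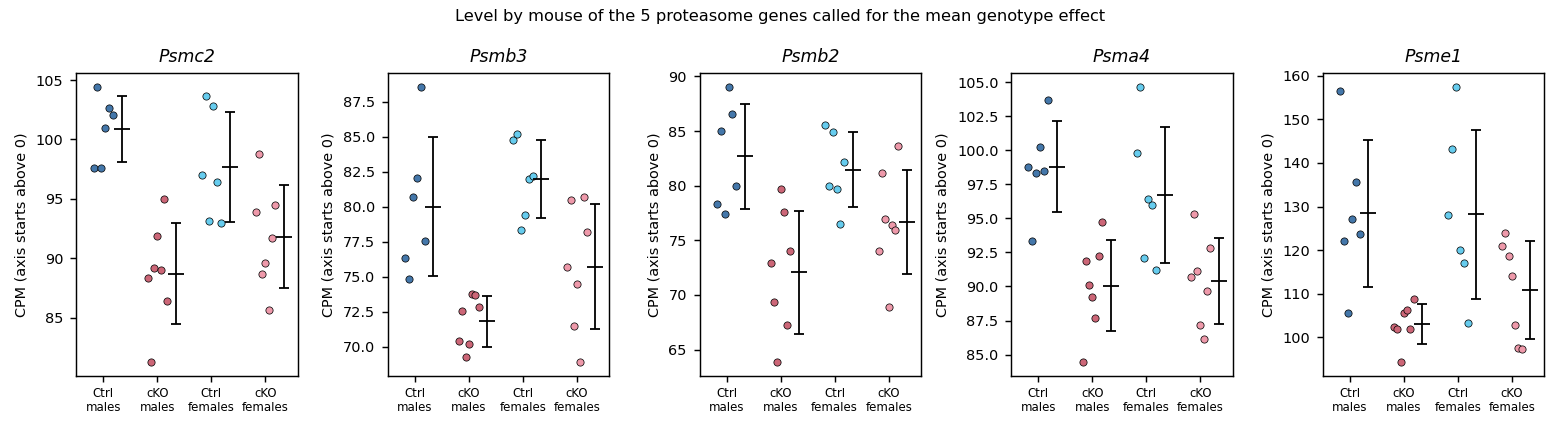
Level in CPM (vertical axes, which start above 0) of the 5 members called for the mean genotype effect, with 1 point per mouse and the mean and SD beside each group. For Psmc2 and Psmb3 the highest cKO male lies below the lowest Ctrl male, and for Psme1 the Ctrl mice spread from 103 to 157 CPM.

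The peptidase genes of the core were lower in cKO by point estimate, without a call. Psmb6 averaged 136 ± 8.19 CPM in Ctrl and 124 ± 5.09 CPM in cKO males, and 139 ± 4.92 against 133 ± 12.7 CPM in females (SD; each sex had n = 6 Ctrl and n = 7 cKO mice, here and below). Psmb7 averaged 142 ± 3.93 against 133 ± 4.20 CPM in males and 138 ± 6.26 against 129 ± 8.12 CPM in females. Apart from Psmb7 in males, where the highest cKO mouse (137.6 CPM) only just reached the lowest Ctrl mouse (137.5 CPM), the groups overlapped broadly. Their male log2 fold changes were -0.13 (SE 0.05) for Psmb6 and -0.09 (SE 0.04) for Psmb7, with edgeR adjusted p of 0.253 and 0.351. Exact two-sided permutation tests gave unadjusted p of 0.0128 and 0.00175 in males and 0.293 and 0.067 in females. Besides Psmc2 and Psmb3, the male groups did not overlap for Psmb4 (116 to 123 CPM in Ctrl, 103 to 114 in cKO) and for the 19S subunit Psmd6 (68.3 to 75.8 and 60.5 to 68.0 CPM). These 4 of 47 members compare with 0.873% of all genes whose cKO males lay below every Ctrl male. In females it was 0 of 47, against 0.0521% of all genes.

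Psmb5, the chymotrypsin-like peptidase, fell into a pair of separate ranges that did not follow genotype or sex. It was at 65.9 to 83.3 CPM in 7 mice, which were Ctrl male 6, cKO males 3 and 4, Ctrl females 3 and 5 and cKO females 2 and 3. In the other 19 mice it was at 90.3 to 106 CPM. By group it ranged from 71.9 to 106 CPM in Ctrl males (median 99.5), 65.9 to 101 in cKO males (median 91.1), 71.0 to 106 in Ctrl females (median 102) and 69.9 to 104 in cKO females (median 95.3), with overlap throughout. Exact two-sided permutation tests of genotype gave unadjusted p of 0.223 in males and 0.698 in females. The separate ranges were noticed in the values and were not tested. A processed pseudogene on chromosome 7, Gm3375, matches the Psmb5 transcript at 98.9% over 796 bases. It had 310 to 436 counts (19.1 to 23.0 CPM) in the 7 mice and 53 to 106 counts (3.02 to 5.01 CPM) in the 19.

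Summed with Gm3375, Psmb5 was at 85.1 to 105 CPM in the 7 mice and 93.4 to 109 CPM in the 19, so these sums overlapped. Its within-group standard deviation then fell from 0.22 to 0.09 on the log2 scale. With the copies of each member added to it, the log2 fold change of Psmb5 in males was -0.11 (SE 0.05, edgeR adjusted p = 0.361), beside -0.14 (SE 0.11, edgeR adjusted p = 0.626) as deposited. Myh7, the slow myosin heavy chain, which lies on chromosome 14 as Psmb5 does, was at 566 to 851 CPM in the 7 mice and 31.1 to 347 CPM in the 19. The targeted gene Ppp2r2a lies on chromosome 14 as well, and the mice were of mixed C57BL6/N and FVB background. Psme1 and Psme2, also on chromosome 14, overlapped between these mice. The cause of this pattern was not tested.

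**Figure D4:**
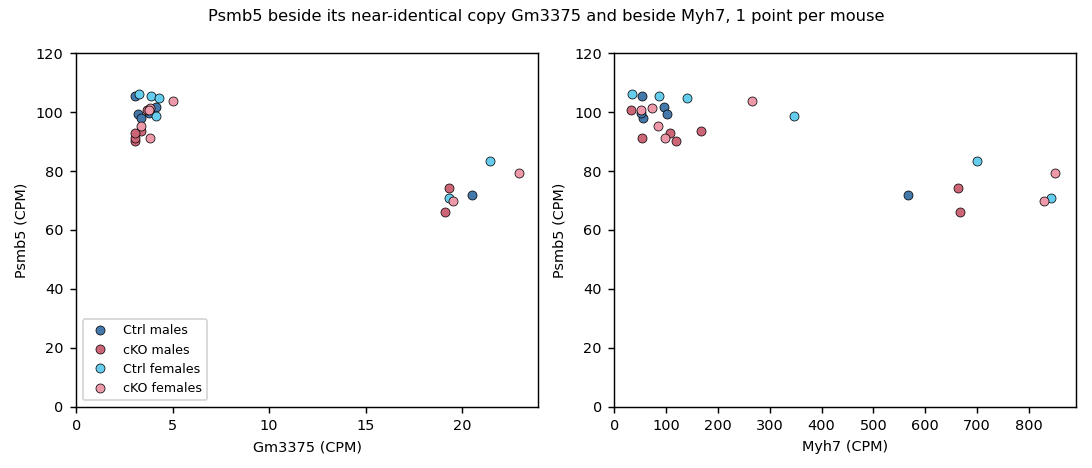
Level of Psmb5 (vertical axes, CPM) against its near-identical copy Gm3375 (left) and against Myh7 (right), with 1 point per mouse, coloured by group. The 7 mice with Gm3375 above 19 CPM have Psmb5 below 84 CPM and Myh7 above 560 CPM, and they come from all 4 groups.

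Of the 19S regulatory particle, 17 subunit genes match the naming rule. Subunits with other names, such as the ubiquitin receptor Adrm1, are not counted here. Of the 17 genes, 15 were below 0 in males and 17 in females, with medians of -0.06 and -0.07. At an unadjusted edgeR p under 0.05, 5 were lower in males and 3 in females, against 7.09% and 2.42% of all genes. Their summed level was 1849 to 1948 CPM in Ctrl males (median 1886) and 1697 to 1892 CPM in cKO males (median 1836). In females the sums were 1784 to 1933 (median 1864) and 1704 to 1843 CPM (median 1766). Both pairs of ranges overlapped.

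Psmc2, an ATPase of the 19S base, was the member with the smallest p in males and for the mean effect. It was at 97.6 to 104 CPM in Ctrl males (median 102) and 81.3 to 95.0 CPM in cKO males (median 89.0), without overlap. In females it was at 93.0 to 104 CPM (median 96.7) in Ctrl and 85.7 to 98.7 CPM (median 91.7) in cKO mice, with overlap. Its effect on the log2 scale was -0.19 (SE 0.04, edgeR adjusted p = 0.0361) in males, -0.09 (SE 0.04, edgeR adjusted p = 0.948) in females and -0.14 (SE 0.03, edgeR adjusted p = 0.0162) for the mean effect. The male call was lost on omission of any of 12 of the 13 male mice, all but cKO male 4 (largest edgeR adjusted p = 0.107), without Ctrl males 3 and 6 (edgeR adjusted p = 0.0674) and with the replicate block (edgeR adjusted p = 0.0579). It was also lost with no filter, with the length and GC offset with or without the block, and in a fit of the male groups alone (edgeR adjusted p from 0.0544 to 0.194). The call for the mean effect held on omission of each of the 26 mice in turn (largest edgeR adjusted p = 0.0355) and was lost with the length and GC offset together with the replicate block (edgeR adjusted p = 0.118).

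The other 5 ATPases were below 0 in both sexes, from -0.06 to -0.09 in males, and none was called. Among the 11 non-ATPase subunits, Psmd6 and Psmd13 were at -0.12 (SE 0.04) each in males and at -0.09 (SE 0.04) each in females, with edgeR adjusted p for the mean effect of 0.0748 and 0.0724. Psmd14, the deubiquitinase of the lid, was at 0.04 (SE 0.04) in males and -0.04 (SE 0.04) in females. Psmd11, a lid subunit, was at 0.01 (SE 0.05) and -0.08 (SE 0.05), with 82.7 ± 4.86 CPM in Ctrl against 83.5 ± 3.53 CPM in cKO males and 81.6 ± 2.67 against 77.0 ± 5.09 CPM in females (SD). Psmd4, a ubiquitin receptor, was at -0.04 (SE 0.05) in each sex.

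Of the 4 activators, Psme1 and Psme2 encode the subunits of PA28, the interferon-inducible cap of the core, and Psme3 and Psme4 encode nuclear activators. Psme1 was at 106 to 156 CPM in Ctrl males (median 125) and 94.4 to 109 CPM in cKO males (median 102). It was at 103 to 157 CPM in Ctrl females (median 124) and 97.4 to 124 CPM in cKO females (median 114). All 7 cKO mice of each sex lay below the Ctrl mean, with the Ctrl mice spread more widely than the cKO males. Its effect on the log2 scale was -0.32 (SE 0.08, edgeR adjusted p = 0.0714) in males, -0.21 (SE 0.08, edgeR adjusted p = 0.932) in females and -0.27 (SE 0.06, edgeR adjusted p = 0.0219) for the mean effect. The last call held on omission of each mouse in turn and was lost with the length and GC offset together with the replicate block (edgeR adjusted p = 0.0695).

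Psme2 was at 38.2 to 46.3 CPM in Ctrl males and 36.7 to 39.9 CPM in cKO males, with log2 fold changes of -0.17 (SE 0.08) in males and -0.13 (SE 0.08) in females, and it was not called. Its copy Psme2b, at 99.4% over 794 bases, had counts equal to 6.85% of its own, so it is uncertain. Psme3 averaged 69.8 ± 4.69 CPM in Ctrl against 72.0 ± 5.08 CPM in cKO males, and 70.4 ± 3.22 against 67.1 ± 3.35 CPM in females (SD), with overlap. Psme4 averaged 254 ± 34.9 against 261 ± 20.5 CPM in males and 226 ± 20.1 against 222 ± 17.3 CPM in females (SD), also with overlap. The log2 fold changes of Psme3 and Psme4 were 0.04 (SE 0.05) and 0.04 (SE 0.07) in males and -0.07 (SE 0.05) and -0.03 (SE 0.07) in females. Psmf1 was at 0.03 (SE 0.06) and -0.02 (SE 0.06).

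The 3 immunoproteasome genes gave no call, and Psmb8 and Psmb9 varied widely between mice of a group. Psmb8 was at 10.4 to 20.4 CPM in Ctrl males (median 16.7), 12.3 to 19.5 in cKO males (median 14.6), 13.6 to 22.4 in Ctrl females (median 17.3) and 11.2 to 21.3 in cKO females (median 14.9). Psmb9 was at 4.88 to 10.1, 5.83 to 8.87, 6.39 to 8.95 and 5.19 to 10.1 CPM in the same order, and Psmb10 at 40.8 to 51.1, 42.2 to 52.1, 39.2 to 51.2 and 41.6 to 51.2 CPM. The ranges of all 3 overlapped in every comparison of groups.

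Their log2 fold changes in males were -0.11 (SE 0.17) for Psmb8, -0.16 (SE 0.15) for Psmb9 and -0.02 (SE 0.07) for Psmb10, and in females -0.16 (SE 0.17), -0.09 (SE 0.16) and -0.03 (SE 0.07). Exact two-sided permutation tests gave unadjusted p from 0.527 to 0.742 in males and from 0.333 to 0.698 in females. None of the 3 had an unadjusted p under 0.05 by edgeR in any contrast. A change of the size seen in the core was not detectable for Psmb8 and Psmb9, whose standard errors exceed it. Per kilobase the 3 genes made up 9.75% to 13.7% of the summed level of the 6 peptidase genes in Ctrl males, 10.6% to 13.0% in cKO males, 9.67% to 13.2% in Ctrl females and 9.96% to 13.8% in cKO females.

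Psmb8 and Psmb9 were set beside Tap1 in single mice, as a description with no test. Ctrl male 2 had 10.4 CPM of Psmb8 and 4.88 of Psmb9, the lowest of all mice for both, and also the lowest Tap1 (7.32 CPM), the peptide transporter of that pathway. Ctrl male 6 had 20.4 and 9.37 CPM with 15.2 CPM of Tap1. Ctrl male 5 was likewise high in all 3 genes (20.0, 10.1 and 14.4 CPM of Psmb8, Psmb9 and Tap1). In cKO female 6 all 3 were low (11.2, 5.19 and 7.81 CPM). Some mice departed from this pattern. The highest Tap1 (17.4 CPM) was in cKO male 1, with 15.3 CPM of Psmb8 and 7.08 of Psmb9, and Ctrl male 3 had 7.42 CPM of Tap1 with 13.2 and 7.03 CPM. Tap1 and Psmb9 are divergent neighbours whose transcripts match over 212 bases on opposite strands, so their counts may share reads. In the list of 13 antigen processing and interferon genes, 6 were below 0 in males and 13 in females, with medians of 0.05 and -0.09, and 0 passed in either genotype contrast.

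**Figure D5:**
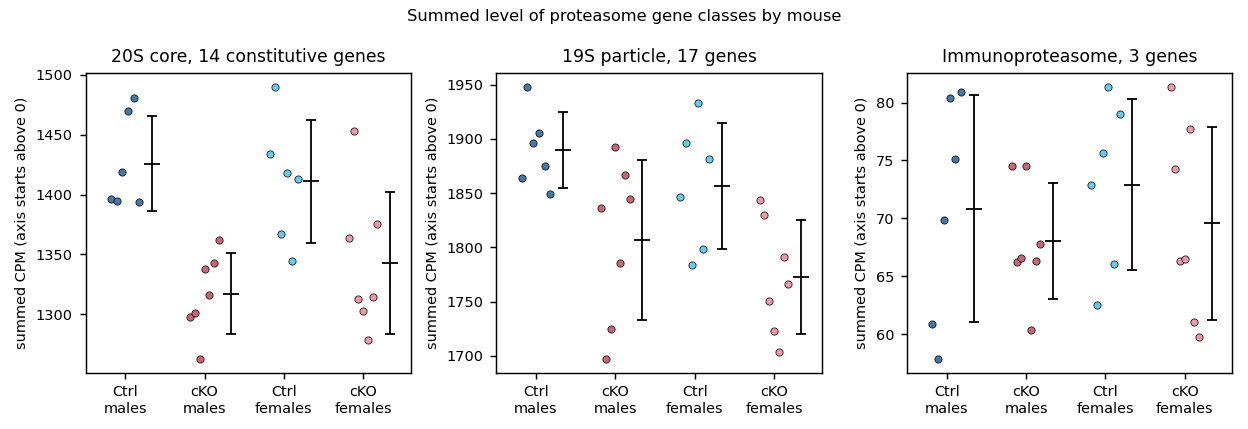
Summed CPM per mouse (vertical axes, which start above 0) of the 14 constitutive core genes, the 17 genes of the 19S particle and the 3 immunoproteasome genes, with the mean and SD beside each group. In the core the cKO males (1262 to 1362) lie below every Ctrl male (1394 to 1480), and the immunoproteasome sums overlap in all 4 groups.

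No assembly chaperone was called in any contrast. Of the chaperones of the core, Psmg1 had a log2 fold change of -0.13 (SE 0.06) in males and -0.06 (SE 0.06) in females, and Psmg2 at -0.01 (SE 0.05) and 0.01 (SE 0.05). Psmg3 was at -0.08 (SE 0.12) and -0.01 (SE 0.12). Psmg4 averaged 6.74 ± 0.80 CPM in Ctrl against 6.00 ± 0.52 CPM in cKO males, and 6.74 ± 1.07 against 7.29 ± 1.36 CPM in females (SD). The difference between the sexes was 0.27 (SE 0.16), the largest among the members, and did not pass (edgeR adjusted p = 0.999, unadjusted p = 0.101). The 19S chaperones Psmd5, Psmd9 and Psmd10 had log2 fold changes of -0.06, -0.08 and 0.08 in males, with no unadjusted p under 0.05. Psmd10, also known as gankyrin, averaged 7.57 ± 0.89 CPM in Ctrl against 7.98 ± 0.62 CPM in cKO males, and 8.03 ± 0.88 against 7.85 ± 0.84 CPM in females (SD). These ranges overlapped throughout.

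Counted by mouse, between 30 and 45 of the 47 members lay below the Ctrl male mean in the 7 cKO males. In the 6 Ctrl males themselves it was 17 to 31. In females the counts were 22 to 41 in the cKO and 14 to 36 in the Ctrl mice. Each Ctrl mouse is part of the mean it was set against, so the Ctrl counts centre near the middle by construction. The counts of the genotypes are therefore not like for like, and the same counts over all genes are not given here. Summed over all members, levels were 3884 to 4061 CPM in Ctrl males, 3615 to 3906 in cKO males, 3783 to 4033 in Ctrl females and 3596 to 3911 in cKO females. The ranges overlapped in both sexes. In males the overlap came from Ctrl male 6, at 3884 CPM, and cKO male 4, at 3906 CPM.

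Markers of cardiomyocytes also had log2 fold changes mostly below 0. Of 6 markers, 5 were below 0 in males and 6 in females, with medians of -0.16 and -0.09, and Tnni3, cardiac troponin I, was called in males (-0.24, SE 0.05, edgeR adjusted p = 0.0316). Their summed level was 57758 to 64878 CPM in Ctrl males, 50461 to 60485 in cKO males, 58962 to 71058 in Ctrl females and 55148 to 66443 in cKO females. All 4 fibroblast markers were above 0 in both sexes, with summed levels of 661 ± 92.9 CPM in Ctrl and 708 ± 64.2 CPM in cKO males (SD). The higher male sum came mainly from Col1a1, a collagen gene, with means of 87.7 (Ctrl) and 125 CPM (cKO). Its male groups did not overlap, and it was not called. For Dcn, Pdgfra and Tcf21 the male means differed by less than the SD of either group. None of the 6 tested leukocyte markers was called (45.9 to 81.7 CPM summed over the list in Ctrl males, 56.0 to 74.1 in cKO males). In females all 6 leukocyte markers (median 0.10) and all 4 endothelial markers (median 0.08) were above 0, with summed levels of 53.7 ± 6.44 in Ctrl and 57.2 ± 8.67 CPM in cKO for leukocytes and 732 ± 70.3 and 772 ± 108 CPM for endothelium (SD), while in males 4 of 6 and 2 of 4 were above 0. The part of these cell types in the proteasome result was not tested.

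Sex was compared separately in Ctrl and in cKO ventricles. Among Ctrl mice 28 of 47 members had a log2 fold change of females against males below 0 (48.9% of all genes), with a median of -0.01. By edgeR 0 members and 0.638% of all genes were called, and DESeq2 called 0 members and 1.65% of all genes. An unadjusted p under 0.05 was reached by 3 of 47 members, a smaller share than the 12.1% of all genes. In cKO mice 22 of 47 were below 0 (48.1% of all genes), with a median of 0.01. By edgeR 0 members and 2.7% of all genes were called, and DESeq2 called 3 members and 4.6% of all genes. An unadjusted p under 0.05 was reached by 7 of 47 members and by 17.3% of all genes, so the members' share was near the background.

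The members with the smallest p in cKO mice were Psmb4, Psme4 and Psmd1. Psmb4 was at 118 ± 5.69 CPM in females and 109 ± 3.39 in males (SD, n = 7 each), a difference of 0.12 on the log2 scale (SE 0.04, edgeR adjusted p = 0.0763). Psme4, the PA200 activator, was at 222 ± 17.3 CPM in females and 261 ± 20.5 in males (SD, n = 7 each), a change of -0.23 (SE 0.07, edgeR adjusted p = 0.0802), and it was at -0.17 (SE 0.08) in Ctrl mice. Psmd1, a scaffold subunit of the 19S base, was at -0.17 (SE 0.06, edgeR adjusted p = 0.0832) in cKO and at -0.08 (SE 0.06) in Ctrl mice. Psmd11 (-0.12), Psmg1 (0.13) and Psmg4 (0.27) were the other members at the ends of the range in cKO mice. In Ctrl mice the members at the ends, besides Psme4, were Psma8 (-0.17), Psmd5 (-0.11), Psmg2 (0.07), Psmd10 (0.09) and Psmb8 (0.12). Psmd5 was at 17.5 ± 1.72 CPM in Ctrl females and 18.9 ± 1.31 in Ctrl males, and Psmg2 at 28.0 ± 1.45 and 26.7 ± 1.68 (SD, n = 6 each), so both pairs of groups overlapped.

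Genes that act with the proteasome were read from 6 lists, of which the list of antigen processing genes is given above. One list held 16 tested subunits and partners outside the naming rule, such as the ubiquitin receptor Adrm1, the assembly factor Pomp and the deubiquitinase Usp14. Of these, 6 were below 0 in males and 11 in females, with medians of 0.03 and -0.03, and 0 were called in either. In cKO mice 2 of them were called lower in females than in males, Usp14 (-0.20, SE 0.06, edgeR adjusted p = 0.0479) and Ecpas (-0.18, SE 0.05, edgeR adjusted p = 0.0439), a scaffold that binds the proteasome.

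Of 11 genes for control of proteasome transcription, 4 were below 0 in males and 9 in females, and 0 were called. Nfe2l1, the factor that raises proteasome genes when activity falls, averaged 577 ± 25.8 CPM in Ctrl and 583 ± 51.0 CPM in cKO males (SD), with log2 fold changes of 0.01 (SE 0.06) in males and -0.04 (SE 0.06) in females. Nfyc, a subunit of NF-Y, was at -0.17 (SE 0.06) in males and -0.11 (SE 0.06) in females, with an edgeR adjusted p of 0.065 for the mean effect. The other NF-Y subunits did not share this direction in both sexes, with Nfya at 0.07 (SE 0.07) in males and -0.01 (SE 0.07) in females and Nfyb at -0.03 (SE 0.06) and 0.13 (SE 0.07).

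Among 9 genes of ubiquitin, its activating enzymes and the unfoldase Vcp, 7 were below 0 in males and 6 in females, with medians of -0.04 in each, and 0 were called. Of 9 muscle ubiquitin ligases, 6 and 7 were below 0 and 0 were called by genotype, while Fbxo40 was lower in cKO females than cKO males (-0.28, SE 0.07, edgeR adjusted p = 0.0242). Of 15 autophagy and lysosome genes, 8 and 13 were below 0, and Map1lc3a, which encodes a protein of the autophagosome membrane, was called lower for the mean effect (-0.16, SE 0.04, edgeR adjusted p = 0.0308).

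Copies limit how far single genes can be read. Of the 48 members, 19 matched another transcript at 90% or more over at least 200 bases, and for 10 of them a match had counts above 1% of the member's own. These include Psma3 with Gm13835 (4.91%), Psma5 with Gm12989 (3.09%), Psmb3 with Gm4950 (2.27%) and Psmc1 with Gm9575 (1.25%), besides Psmb5 and Psme2. Transcripts of Psmb7, Psmb9 and Psmd13 match those of Nek6, Tap1 and Sirt3 on the opposite strand at 100%. Psmd11 matches A730017L22Rik, also on the opposite strand, at 97.9% over 1503 bases. Gene positions were not compared. The libraries were strand-specific, but whether the counting used strand is not given in the sources used here, so these members are uncertain. With the counts of copies added to their member, 41 members in males and 45 in females were below 0. By edgeR 1 and 0 members were then called, with 5 for the mean effect. The share of all genes called in that setting is not given here.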

How the data were processed

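Stranded poly-A libraries were made from 500 ng of RNA from about 20 mg of left ventricle, with an RNA integrity number of 7.7 or more, per the labels' protocols. The authors deposited 1 table of raw counts per gene. The submitters' processing notes name FastQC 0.74, cutadapt 4.6, STAR 2.7.11a, HTSeq and build GRCm39. The strand setting and annotation release are not given in the sources used here.

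Groups came from the labels. Each mouse was taken as a replicate. In 72 pairs of libraries of 1 group, counts differed by more than sampling noise (chi-square per degree of freedom 7.34 to 36.5). Genes with low counts were removed with filterByExpr of edgeR 4.0.16 (R 4.3.3, minimum count 10). Counts were scaled by TMM, and a quasi-likelihood model with 4 group means was fitted to all 26 libraries. A gene was called at a Benjamini-Hochberg adjusted p under 0.05 over all 15357 genes. CPM are counts scaled to the TMM library size, and log2 CPM had a prior count of 2. Lengths, chromosomes and transcript copies came from GENCODE M21 transcripts, matched by gene name or ID. The fit was tested on simulated data. Exact permutation tests of single genes, 44 in all, are printed without adjustment, although an adjustment over them had been planned.

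Members are all genes matching the name rule. Values are given for the peptidase genes, for members called in any contrast and for the 3 highest and 3 lowest fold changes in the male, female, interaction and sex contrasts. Of the other lists, called genes are named. Nfe2l1 and Nfyc, the non-overlapping members and the Psmb5 pattern were named after their values were seen. The members, gene lists and markers were chosen with earlier results of these data known. Alternatives were DESeq2 1.42.0, voom in limma 3.58.1, other filters, scalings and thresholds, a replicate block, a length and GC offset, copies added to their member, and omission of each mouse. The alternative with copies added, and DESeq2 for the medians and single members, were chosen after seeing the data.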

Additional observations from a re-analysis of the deposited data

Results flagged for a closer look

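Within groups, 60 sets of values of named members and summed levels were examined for a single distant mouse, and chance alone marks about 1 in 20 groups. One was found. Psmb5 was at 71.9 CPM in Ctrl male 6, while the nearest of the other 5 Ctrl males was at 97.9 CPM, a gap of 0.771 of the group's range. This mouse is also 1 of the 7 with Gm3375 above 19 CPM, and 6 further mice with low Psmb5 are in the other 3 groups. The cause was not tested.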

How the results depend on the processing

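In males the count of members called, 1 by edgeR, was 6 with DESeq2, 2 with voom, 5 at an adjusted p under 0.1 and 0 under each of these settings: no filter, a fit of the compared groups alone, the replicate block, the length and GC offset, that offset with the replicate block, without Ctrl males 3 and 6, and an adjusted p under 0.01. Leaving out each mouse gave 0 to 2. For the mean effect, 5 by edgeR, it was 11 with DESeq2, 2 with no filter, 3 with the length and GC offset, 0 with that offset and the replicate block, 0 at an adjusted p under 0.01, 8 at 0.1, 4 with the replicate block, and 3 to 7 on leaving out each mouse. For females against males in cKO, 0 by edgeR, it was 3 with DESeq2, 1 each with voom, with a mean of at least 5 CPM and with only the compared groups, 3 at an adjusted p under 0.1, and 0 to 1 on leaving out each mouse. Calls over all genes moved with the setting too. In males 0.443% of all genes were called by edgeR and 2.6% by DESeq2. The shares were 1.33% and 3.57% for the mean effect, and 2.7% and 4.6% for sex in cKO. Shares for the other settings are not given here, so these counts cannot be read as changes of the members alone. The causes were not tested. Counts for females, for the difference between the sexes and for sex in Ctrl were 0 in 119 of 119 alternatives. These include an adjusted p under 0.01, which cannot raise a count of 0, and omission of mice outside the compared groups.

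The members' median log2 fold change ranged from -0.10 to -0.06 in males, from -0.08 to -0.05 in females and from -0.08 to -0.06 for the mean effect. For sex in cKO it ranged from -0.02 to 0.01. Psmb10 reversed in males to 0.014 with the length and GC offset with replicate block and to 0.031 without Ctrl males 3 and 6, and ranged from -0.061 to 0.0051 on leaving out each mouse. Its mean effect turned to 0.00019 with the offset and block. Psmb5 in females ranged from -0.12 to 0.0060 on leaving out each mouse. Without the filter the calls of Psmb3, Psma4 and Psmb2 for the mean effect were lost (edgeR adjusted p of 0.0604, 0.102 and 0.0844).

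Same-numbered mice of Ctrl and cKO had correlated deviations of -0.16 to 0.09 in males and -0.10 to 0.40 in females. Of these pairs, 1 of 6 and 2 of 6 correlated best with their own number, and 0 and 3 were above 0.1. Their mean was -0.026 in males, against 0.004 for other pairs, and 0.12 in females, against -0.019. The labels give no pairing, so the block was not used for the reported values. The precision of Psma8 is limited by low counts. For Psmb8 and Psmb9 it is limited by their spread between mice of a group. That spread exceeded the spread of Psmg3 and Psmg4, which had fewer counts.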
